A study of Mus musculus with 12 samples.

Results

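The interaction of Gne genotype and culture state was described in Sol8, a mouse line of skeletal myoblasts. It is the difference between the change from the proliferative to the differentiated state in Gne KO cells and the same change in WT cells, measured for every gene by RNA sequencing. Its members were all 20415 genes with at least 10 counts over the 12 libraries, of 54838 genes listed. The 4 groups were Gne KO differentiated, Gne KO proliferative, WT differentiated and WT proliferative, with 3 libraries each, labelled biological replicates. Proliferative cells grew in 10% FCS and differentiated cells were kept in 2% horse serum, so both serum and state changed at once. The Gne KO cells came from 1 clone picked after editing with Cas9, with a short deletion in exon 3 of Gne that leads to stop codons, so clone and genotype cannot be told apart. The study describes RNA taken from 3 independent cultures, with triplicates of each sample. It does not say which library came from which culture. P-values measure the spread between these libraries.

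Myoblasts in high serum divide. When serum is withdrawn they leave the cell cycle, switch on the myogenic regulators and the genes of the sarcomere, and fuse into myotubes, and Id proteins, which bind and block the E-protein partners of MyoD, are a known brake on that step. Gne encodes the enzyme that makes the precursor of sialic acid, the sugar at the ends of many glycoprotein chains. An interaction asks whether the same change of medium moved a gene differently in the 2 genotypes. In the text a response is the log2 change of a gene's normalized count, differentiated over proliferative, and the interaction is the Gne KO response minus the WT response, so that a negative interaction means that the gene rose less or fell more in Gne KO cells.

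The libraries held 22612038 to 29389759 counts in genes. Gne itself, at chr4:44034075-44084177 of GRCm38 (minus strand), had 205, 209 and 212 in differentiated and 232, 333 and 344 in proliferative Gne KO cells, against 277, 285 and 264 in differentiated and 278, 255 and 277 in proliferative WT cells. Its interaction of -0.53 ± 0.19 (SE, adjusted p = 0.0358) was under the limit of size for a call, and a short deletion within an exon need not remove reads from the rest of the gene, so this gene count is no check of the labels. The markers of skeletal myotubes were far lower in Gne KO cells. Summed over 12 genes such as Myog, Ckm and Ttn, they came to 2694 to 4206 normalized counts in differentiated and 1502 to 3017 in proliferative Gne KO cells, against 109136 to 123545 in differentiated and 29038 to 83935 in proliferative WT cells. Replicates lay wider apart in proliferative cells. The standard deviation of log2 values from the other replicates was 0.302 to 0.40 in the proliferative Gne KO libraries and 0.291 in proliferative WT replicate 1, against 0.089 to 0.181 in all others. Proliferative Gne KO libraries also detected fewer genes, 19225 to 20318, against 20858 to 21953 in the other 9. In whole cultures, fewer cells of a type and less RNA per cell cannot be told apart.

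More genes were called for the change of state in Gne KO cells than in WT cells. A call needed 3 things, namely an adjusted p under 0.05 (limma voom, Benjamini-Hochberg over all genes tested), a mean of 5 normalized counts or more, and a log2 change beyond 0.9 plus 7.5 over the root of the mean. By this rule 2386 genes (11.7%) were called for the response of Gne KO cells and 552 (2.70%) for that of WT cells. The interaction was called for 1742 genes (8.53%), of which 1130 (5.54%) were higher and 612 (3.00%) lower in the Gne KO response. By adjusted p alone, 4012 genes (19.7%) were higher and 4533 (22.2%) lower. Close to the limit of size, Ndufb9 was called at an interaction of -1.11 and Fam162a was not at 1.07. With library sizes alone in place of TMM factors the median interaction of all genes moved to 0.20 and 1965 genes were called, 80.3% of them higher, where the TMM factors gave 64.9% and a median of -0.02.

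The largest class of the genes called for the interaction was that whose response passed its own test in Gne KO cells alone, 59.0% of them, but 48.6% after a correction for GC content and length, 45.2% with library weights per group and 46.7% without proliferative Gne KO replicate 1. A gene was put in a class by whether each response passed an adjusted p of 0.05. The response was gained in Gne KO cells (only Gne KO passed) for 1028 genes, 786 of which rose and 242 fell. It was lost (only WT passed) for 106, of which 86 rose and 20 fell in WT cells. It was reversed (both passed with opposite signs) for 292, of which 167 rose and 125 fell in Gne KO cells. A further 294 genes moved the same way but further in Gne KO cells, 21 moved the same way but less, and 1 passed in neither. A response that misses the threshold is not shown to be 0. Of the lost genes, 58 had a Gne KO response whose 95% interval lay within 1 of 0 on the log2 scale. A further 28 lost genes stood under 10 normalized counts in both Gne KO groups, so that their response could hardly be seen there.

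**Figure D1:**
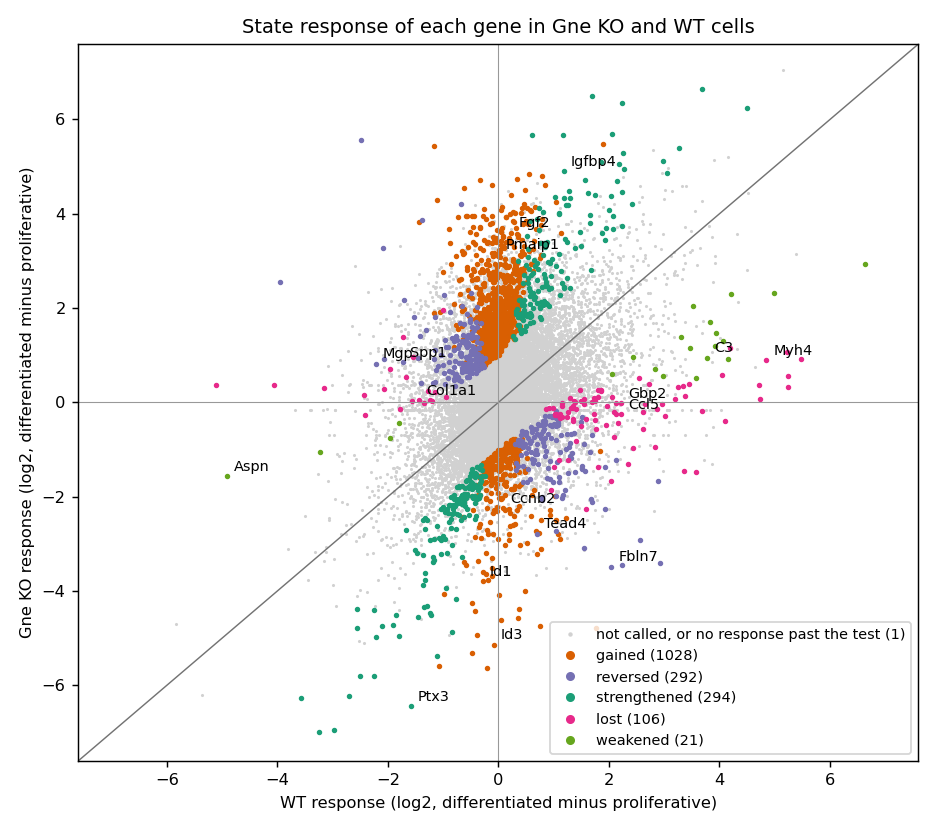
State response of each gene tested in WT cells (x axis) and in Gne KO cells (y axis), both as log2 of differentiated over proliferative. Colours mark the class of the 1742 called genes, and the line marks equal responses. Gained genes stand along the vertical axis, lost genes along the horizontal axis and reversed genes in the upper left and lower right corners.

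The called genes differed between the genotypes mainly while the cells proliferated. Among the 1742, the gap between Gne KO and WT was larger in proliferative cells for 1467 (84.2%) and larger in differentiated cells for 275. The median absolute gap was 0.31 on the log2 scale in differentiated cells and 1.50 in proliferative cells, while over all genes tested it was 0.31 and 0.65. At an adjusted p under 0.05, 1110 of the called genes differed between the genotypes in proliferative cells only, 91 in differentiated cells only, 148 in both states in 1 direction and 393 in both states in opposite directions. The gap in proliferative cells also followed GC content, as given below. These counts were not repeated after the GC correction, and the part of GC content in them was not tested.

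GC content moved with these calls. Over 10676 genes that averaged 100 normalized counts or more, Spearman's correlation across genes with the GC content of the transcript was -0.55 for the interaction, -0.43 for the Gne KO response and 0.09 for the WT response. For the gap between Gne KO and WT it was 0.61 in proliferative and 0.15 in differentiated cells. After the correction for GC content and length the values of the gap were -0.04 and 0.11. Genes are not independent replicates and the values describe these libraries only. The correlation of each library's deviation from the mean of all libraries was -0.14 to -0.24 in differentiated Gne KO cells, 0.35 to 0.61 in proliferative Gne KO cells, -0.31 to -0.41 in differentiated WT cells and -0.39 to -0.44 in proliferative WT cells. Genes under 38% GC had a median interaction of 1.19 and 50.4% of them were called, against a median of -0.45 and 9.83% at 60% GC or more. The median GC content was 41.2% in the genes called higher, 53.1% in those called lower and 48.8% in all genes tested. When the trend in GC content and length was removed from each library, 1054 genes were called, 443 higher and 611 lower. They shared 688 genes with the 1742, 333 of the higher and 355 of the lower ones. The interaction kept its sign in 1695 of the 1742. The part of GC content in any single result was not tested, so the interaction after this correction is given with part of the genes below. Where it is not given, the size is the uncorrected one. The count of reversed genes also varied with the proliferative Gne KO libraries. Without proliferative Gne KO replicate 1, which lay furthest from its replicates, 632 genes were reversed in place of 292, and 2379 were called. Without replicate 2 or 3 of that group, 291 and 261 were reversed. Replicate 1 had the weakest correlation with GC content in its group, 0.35 against 0.53 and 0.61, so leaving it out kept the libraries with the stronger correlation.

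**Figure D2:**
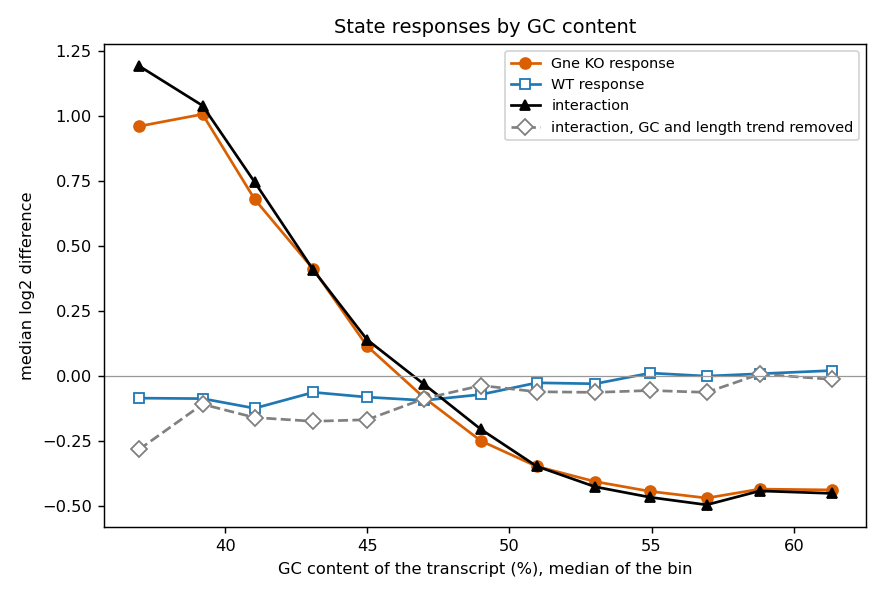
Median log2 difference of genes in 13 bins of GC content, for 10676 genes that averaged 100 normalized counts or more. The Gne KO response is 0.96 in the bin under 38% GC and -0.44 in the bin of 60% or more, the WT response stays between -0.12 and 0.02, and the interaction is 1.19 and -0.45 in these bins, or -0.28 and -0.01 after the trend was removed.

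**Figure D3:**
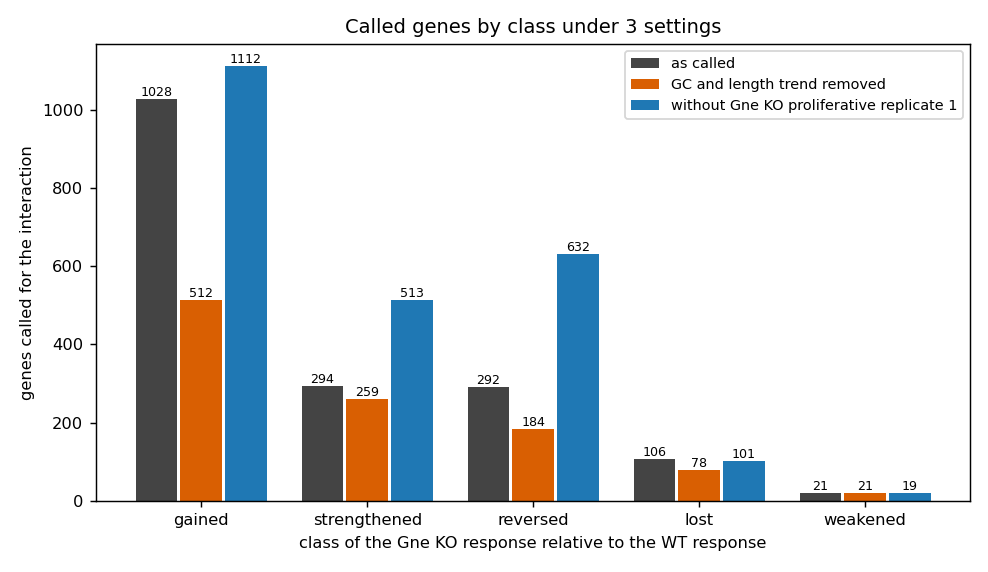
Number of called genes in each class (bars from 0) as called, with the trend in GC content and length removed, and without proliferative Gne KO replicate 1. The gained class goes from 1028 to 512 with the trend removed, and the reversed class from 292 to 632 without that library.

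Rises that WT cells showed and Gne KO cells did not included interferon-inducible genes that were already high in proliferative Gne KO cells. Ccl5, a chemokine, had 1602, 1653 and 1480.2 in differentiated and 1473, 2172 and 2071 in proliferative Gne KO cells, against 1521, 1574 and 1644 in differentiated and 296, 361 and 377 in proliferative WT cells. All proliferative WT values lay below the other 9, which overlapped. The response was -0.25 ± 0.12 (SE) in Gne KO cells and 2.21 ± 0.14 in WT cells, with an interaction of -2.46 ± 0.19 (SE, adjusted p = 4.49e-07) that was -2.15 after the GC correction. Gbp2, an interferon-inducible GTPase of host defence, had 881, 745 and 927 in differentiated and 759, 1022 and 834 in proliferative Gne KO cells, against 1002, 1044 and 1086 in differentiated and 184, 259.8 and 245 in proliferative WT cells. Here too the proliferative WT libraries stood alone, and the interaction was -2.24 ± 0.19 (SE, adjusted p = 9.64e-07) and -2.24 corrected. Irgm2, another such GTPase, had 183, 153 and 202 in differentiated and 149, 199 and 157 in proliferative Gne KO cells, against 146, 161 and 161 in differentiated and 39.9, 27.8 and 45.6 in proliferative WT cells, and an interaction of -1.95 ± 0.26 (SE, adjusted p = 4.05e-05). Ndrg1, a stress and hypoxia gene, had a response of -0.25 ± 0.15 in Gne KO cells and 1.04 ± 0.16 in WT cells, and Ror1, a Wnt receptor, of 0.27 ± 0.15 and 1.85 ± 0.17.

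Muscle genes formed another group of lost rises, and these were scarce in Gne KO cells in both states. Mef2c, a transcription factor that acts with MyoD, had 9.56, 10.8 and 13.9 in differentiated and 37.5, 28.9 and 23.7 in proliferative Gne KO cells, against 302, 305 and 269 in differentiated and 176, 59.9 and 45.6 in proliferative WT cells. The Gne KO libraries all stood below the WT libraries, and within WT cells 1 proliferative library stood apart from the other pair. Its response was -1.36 ± 0.59 in Gne KO cells, with a 95% interval of -2.62 to -0.10, and 1.81 ± 0.29 in WT cells, and the interaction was -3.17 ± 0.66 (SE, adjusted p = 0.0013). After the GC correction its fall in Gne KO cells passed the threshold as well, which made it reversed. Myh4, the fast IIb myosin heavy chain, had 0.869, 0 and 11.1 in differentiated and 0.988, 1.16 and 0 in proliferative Gne KO cells, against 400.04, 482 and 347 in differentiated and 30.3, 5.55 and 12.6 in proliferative WT cells. It was hardly detected in Gne KO cells, where the interval of its response was -1.76 to 3.55, and the interaction of Myh4, -3.94 ± 1.33 (SE, adjusted p = 0.0264), missed the threshold without any 1 of differentiated Gne KO replicates 1 and 2 or proliferative Gne KO replicates 1 and 2, at an adjusted p of 0.0715 to 0.109, and with weights per group of libraries, at 0.213. Casq1, the calcium buffer calsequestrin of the sarcoplasmic reticulum, had an interaction of -2.98 ± 0.57 (SE, adjusted p = 0.000666), and Colq, which anchors acetylcholinesterase at the synapse, of -2.02 ± 0.30 (SE, adjusted p = 8.50e-05). Both were still called after the GC correction, at -2.60 and -1.54, though Colq then also rose in Gne KO cells. These genes stood higher in proliferative WT replicate 1 than in its replicates, as did the muscle lists described further on.

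Sfrp2, a secreted regulator of Wnt signalling, had 0.869, 2.16 and 3.71 in differentiated and 6.91, 10.4 and 2.15 in proliferative Gne KO cells, against 317, 309.96 and 370.1 in differentiated and 104, 52.2 and 45.6 in proliferative WT cells. In Gne KO cells it stood near the lower limit of detection, and its interaction was -3.64 ± 0.83 (SE, adjusted p = 0.00243). Ablim3, an actin-binding LIM protein, had 23.5, 18.4 and 13.9 in differentiated and 28.6, 38.2 and 26.9 in proliferative Gne KO cells, against 554, 606 and 453 in differentiated and 298, 68.8 and 81.01 in proliferative WT cells, and the interaction was -2.82 ± 0.76 (SE, adjusted p = 0.00771). Hist1h1d, a linker histone whose mRNA largely lacks a poly(A) tail, had 372, 47.6 and 81.7 in differentiated and 67.2, 114 and 101 in proliferative Gne KO cells, against 1086, 827 and 685 in differentiated and 43.3, 127 and 94.7 in proliferative WT cells. Differentiated Gne KO replicate 1 stood far above the other Gne KO libraries for this gene, and the interaction of Hist1h1d, -3.07 ± 0.77 (SE, adjusted p = 0.00483), had an adjusted p of 0.0553 when weights were estimated per group of libraries.

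Of the 20 falls lost in Gne KO cells, the most abundant gene was Col1a1, the main chain of type I collagen. It had 31358, 30529 and 30065 in differentiated and 26573, 28839.7 and 33773 in proliferative Gne KO cells, against 40809.9, 42629.5 and 35544 in differentiated and 133340.0, 102125 and 91450.4 in proliferative WT cells. The 6 Gne KO libraries overlapped between the states and stood below all WT libraries, while the WT libraries were separate by state. The response was 0.05 ± 0.12 in Gne KO cells and -1.44 ± 0.12 in WT cells, and the interaction was 1.50 ± 0.17 (SE, adjusted p = 9.84e-06), or 1.81 after the GC correction. Aldh1l2, a mitochondrial enzyme of folate metabolism, had 392, 411 and 449 in differentiated and 448, 394 and 378 in proliferative Gne KO cells, against 2796, 2752 and 2538 in differentiated and 5638, 8863 and 10245 in proliferative WT cells. Gne KO cells held it at 1 low level in both states, and the interaction was 1.60 ± 0.26 (SE, adjusted p = 0.00017). Gas2, a growth-arrest gene that binds actin and microtubules, had 174, 193 and 215 in differentiated and 249, 186 and 204 in proliferative Gne KO cells, against 221, 245 and 259.8 in differentiated and 857, 838 and 796 in proliferative WT cells, so that only proliferative WT cells stood high, with an interaction of 1.64 ± 0.17 (SE, adjusted p = 5.34e-06). Etv4, an ETS transcription factor of the FGF pathway, had 449, 481 and 405 in differentiated and 332, 352 and 469 in proliferative Gne KO cells, against 289.7, 341 and 315 in differentiated and 671, 746 and 681 in proliferative WT cells, and its interaction was 1.37 ± 0.18 (SE, adjusted p = 2.50e-05). With the GC correction the Gne KO responses of Col1a1 and Etv4 passed as rises and that of Gas2 as a fall, so that these genes changed class while their interactions stayed called. Alcam, an adhesion molecule, and Haus6, a subunit of the augmin complex of the spindle, had interactions of 2.14 and 1.51 that no longer passed the limit of size after the correction, at 1.57 and 0.56.

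Falls gained in Gne KO cells included Id3 and Id1, inhibitors of the E-protein partners of MyoD that BMP signalling induces. Id3 had 225, 97.3 and 114 in differentiated and 5235, 3664 and 6130.5 in proliferative Gne KO cells, against 1293, 1476 and 1660.1 in differentiated and 2102, 1494 and 1190.1 in proliferative WT cells. The proliferative Gne KO libraries stood above all others and the differentiated Gne KO libraries below all others, while the WT libraries overlapped between states. The response was -5.14 ± 0.30 in Gne KO cells and -0.09 ± 0.22 in WT cells, with an interaction of -5.05 ± 0.38 (SE, adjusted p = 3.37e-07). Id1 showed the same order, with 108, 97.3 and 108 in differentiated and 1595, 1121 and 1727 in proliferative Gne KO cells, against 325, 351 and 395 in differentiated and 519, 422 and 359 in proliferative WT cells, and an interaction of -3.52 ± 0.27 (SE, adjusted p = 4.58e-07). After the GC correction the values were -4.61 for Id3 and -3.10 for Id1. Atoh8, a helix-loop-helix factor that BMP signalling also induces, had 109, 81.1 and 113 in differentiated and 874, 1102 and 1039.5 in proliferative Gne KO cells, against 226, 221 and 267 in differentiated and 286, 233 and 251 in proliferative WT cells. Again the highest and the lowest libraries were both Gne KO, and the interaction was -3.18 ± 0.21 (SE, adjusted p = 1.34e-07).

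Wisp2, a matricellular protein of the CCN family, had 24.3, 21.6 and 24.1 in differentiated and 462, 424 and 613 in proliferative Gne KO cells, against 148, 157 and 117 in differentiated and 157, 86.6 and 86.7 in proliferative WT cells. Its Gne KO libraries lay to both sides of the WT libraries, which overlapped between states, and the interaction was -4.74 ± 0.39 (SE, adjusted p = 7.37e-07). Galnt18, of the family that starts O-linked glycans, had 9.56, 17.3 and 13.00 in differentiated and 315, 276 and 345 in proliferative Gne KO cells, against 57.6, 56.02 and 35.1 in differentiated and 54.6, 39.96 and 22.8 in proliferative WT cells, with an interaction of -4.92 ± 0.45 (SE, adjusted p = 1.53e-06). H19, an imprinted long noncoding RNA, had 1858, 1178 and 1626 in differentiated and 12254, 30416 and 16975 in proliferative Gne KO cells, against 47179.8, 45718 and 41939.6 in differentiated and 90172, 43641 and 40321 in proliferative WT cells. It stood lower in every Gne KO library than in any WT library and fell in Gne KO cells, with a response of -3.59 ± 0.31, against -0.27 ± 0.29 in WT cells. Tuba1a, an alpha-tubulin, had 4904, 4623 and 5353 in differentiated and 16698, 34888 and 25252 in proliferative Gne KO cells, against 12208, 11814 and 11939.9 in differentiated and 14312, 11934 and 10705 in proliferative WT cells, and an interaction of -2.27 ± 0.26 (SE, adjusted p = 1.04e-05). Cxcl10, an interferon-induced chemokine, had 58.3, 51.9 and 95.6 in differentiated and 418, 469.5 and 499 in proliferative Gne KO cells, against 173, 194 and 218 in differentiated and 138, 189 and 197 in proliferative WT cells. Unlike the interferon genes above it fell in Gne KO cells, with a response of -2.78 ± 0.20 and an interaction of -2.97 ± 0.27 (SE, adjusted p = 1.48e-06).

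Gained rises were the largest class. Fgf2, a growth factor for myoblasts, had 1008, 907 and 941 in differentiated and 98.8, 70.5 and 66.7 in proliferative Gne KO cells, against 352, 314 and 348 in differentiated and 367, 255 and 242 in proliferative WT cells. Differentiated Gne KO cells stood above and proliferative Gne KO cells below every WT library, the response was 3.60 ± 0.19 in Gne KO cells and 0.23 ± 0.15 in WT cells, and the interaction was 3.37 ± 0.24 (SE, adjusted p = 2.39e-07), or 2.55 corrected. Pmaip1, which encodes the proapoptotic protein Noxa and is a target of p53, had 689, 626 and 762 in differentiated and 101, 70.5 and 65.6 in proliferative Gne KO cells, against 578, 571 and 561 in differentiated and 676, 478 and 567 in proliferative WT cells. Only its proliferative Gne KO libraries stood apart from the rest, at low values, and the interaction was 3.14 ± 0.23 (SE, adjusted p = 2.45e-07), or 2.50 corrected. Lcorl, a nuclear factor, had 716, 873 and 867 in differentiated and 159, 94.8 and 77.5 in proliferative Gne KO cells, against 636, 648 and 705 in differentiated and 775, 756 and 804 in proliferative WT cells. The pattern was the same, with an interaction of 3.16 ± 0.22 (SE, adjusted p = 2.39e-07) that was 1.53 after the correction, at a GC content of 36.7%. Zfp52, a zinc finger protein, had 1084, 1112 and 1172 in differentiated and 102, 78.6 and 78.6 in proliferative Gne KO cells, against 424, 373 and 509.6 in differentiated and 303, 389 and 362 in proliferative WT cells, and an interaction of 3.38 ± 0.21 (SE, adjusted p = 1.03e-07). After the GC correction the interaction of Zfp52 was 2.44. Airn, a long noncoding RNA of the imprinted Igf2r locus, had an interaction of 3.33 ± 0.43 (SE, adjusted p = 2.79e-05) and Gdap10 of 3.36 ± 0.44 (SE, adjusted p = 3.01e-05). Airn runs antisense to Igf2r, and its count is uncertain because no source used here states the strand setting of the counting. Itga10, an integrin that binds collagen, had 225, 199.96 and 203 in differentiated and 20.7, 10.4 and 9.68 in proliferative Gne KO cells, against 73.9, 59.8 and 53.2 in differentiated and 59.8, 77.7 and 65.04 in proliferative WT cells, and its interaction of 4.07 was 4.39 after the correction.

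Zinc finger genes were common among the gained rises. Of these 786 genes, 69 (8.78%) had a symbol that starts with Zfp and a number, against 362 of all 20415 genes tested (1.77%), a family looked at after its members were seen. Their class had a median GC content of 41.0% and a median transcript length of 4410 bases, against 48.8% and 2816 bases in all genes tested, and 219 of the 786 (27.9%) were still called after the GC correction. For the gained falls these values were 54.0% GC, 2326 bases and 122 of 242 genes (50.4%). Protein-coding genes made up 72.5% of the gained rises, 94.2% of the gained falls and 71.1% of all genes tested.

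**Figure D4:**
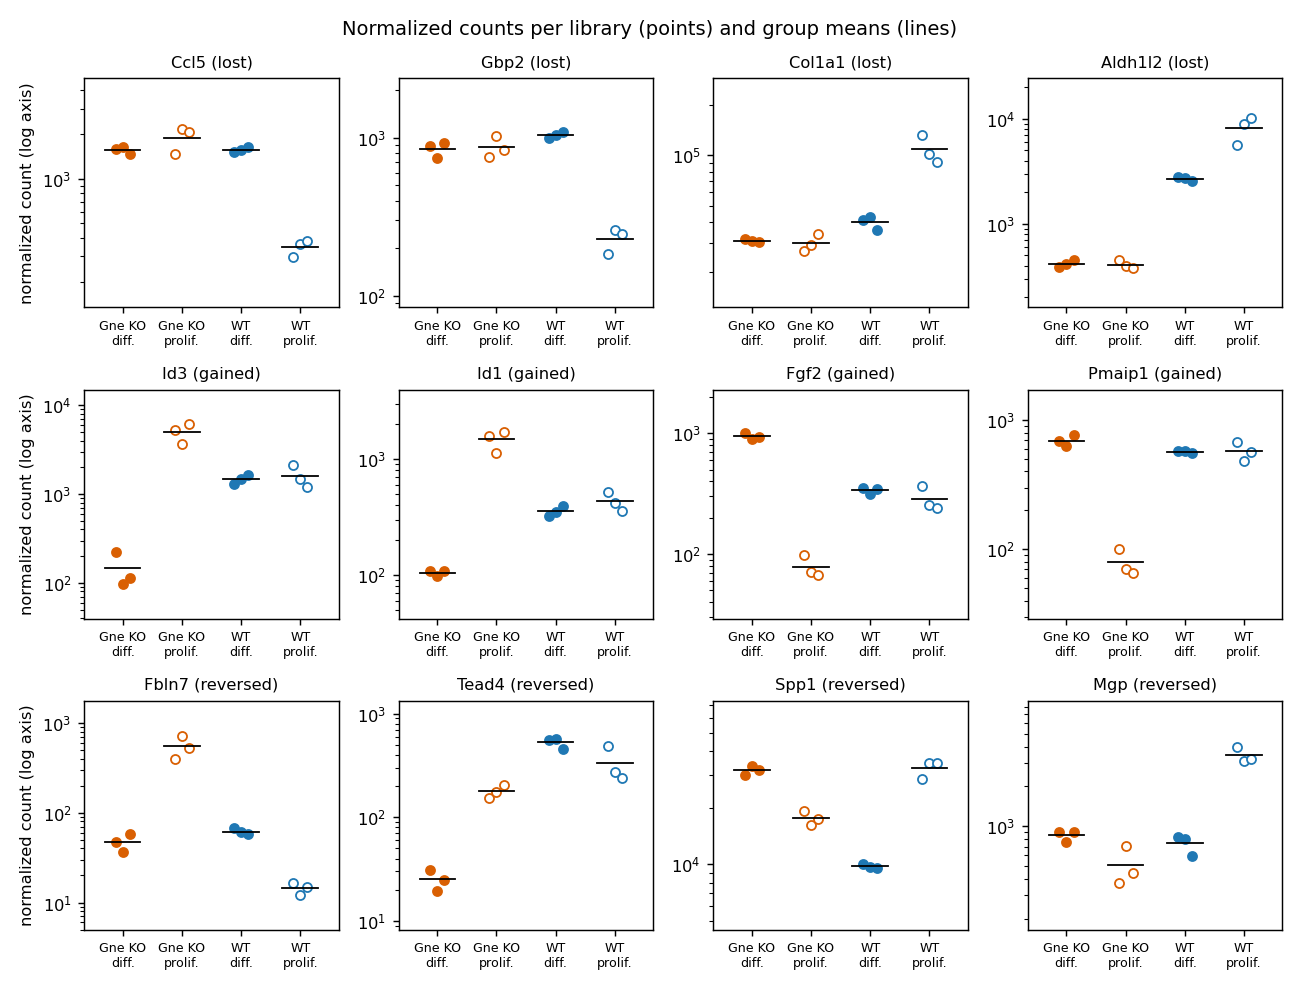
Normalized counts on a log axis in each library (points, 3 a group, filled for differentiated and open for proliferative cells) with the group mean (line) for 12 genes. In the upper row the WT groups are apart and the Gne KO groups overlap, in the middle row the 2 Gne KO groups are apart and the WT groups overlap, and in the lower row the 2 genotypes move in opposite directions.

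Genes that rose in WT cells and fell in Gne KO cells were led by Fbln7, a fibulin of the extracellular matrix. It had 46.95, 36.8 and 57.6 in differentiated and 397, 719 and 528 in proliferative Gne KO cells, against 67.2, 60.7 and 57.2 in differentiated and 16.5, 12.2 and 14.8 in proliferative WT cells. No library of 1 state overlapped the other state of its genotype, and the highest values of all were those of proliferative Gne KO cells. The response was -3.49 ± 0.26 in Gne KO cells and 2.05 ± 0.42 in WT cells, and the interaction of -5.53 ± 0.50 (SE, adjusted p = 1.30e-06) was -5.22 after the GC correction. Npnt, the integrin ligand nephronectin, had 82.6, 67.02 and 81.7 in differentiated and 341, 347 and 319 in proliferative Gne KO cells, against 1545, 1668 and 1315 in differentiated and 1018, 288 and 309 in proliferative WT cells, with an interaction of -3.80 ± 0.56 (SE, adjusted p = 7.80e-05). Proliferative WT replicate 1 stood apart for this gene. Tead4, a TEAD factor of the Hippo pathway that muscle cells induce, had 31.3, 19.5 and 25.1 in differentiated and 152, 176 and 207 in proliferative Gne KO cells, against 560.2, 564 and 459 in differentiated and 487, 275 and 239.6 in proliferative WT cells. Its WT values overlapped between states through proliferative replicate 1 and its Gne KO values did not overlap, with an interaction of -3.48 ± 0.43 (SE, adjusted p = 1.87e-05). Rassf2, which binds Ras, had 118, 99.4 and 131 in differentiated and 460.3, 465 and 439 in proliferative Gne KO cells, against 492, 493 and 440.4 in differentiated and 235, 218 and 178 in proliferative WT cells, and the interaction was -3.14 ± 0.18 (SE, adjusted p = 4.39e-08). Tubb3, a beta-tubulin best known from neurons, had 72.2, 58.4 and 75.2 in differentiated and 217, 295 and 317 in proliferative Gne KO cells, against 355, 346 and 380.2 in differentiated and 213, 154 and 153 in proliferative WT cells, and an interaction of -3.03 ± 0.25 (SE, adjusted p = 8.46e-07). Nov, a CCN matricellular protein, had 529.5, 396 and 542 in differentiated and 2034, 2257 and 1907 in proliferative Gne KO cells, against 492, 511 and 528 in differentiated and 348, 249 and 285 in proliferative WT cells, with an interaction of -2.87 ± 0.19 (SE, adjusted p = 1.29e-07). These 6 genes were all called after the GC correction too.

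Other genes fell in Gne KO cells and rose in WT cells in known groups. Icam1, an adhesion molecule induced by inflammation, had 3.48, 2.16 and 0.929 in differentiated and 18.8, 19.7 and 16.1 in proliferative Gne KO cells, against 17.3, 24.3 and 20.1 in differentiated and 3.47, 3.33 and 2.28 in proliferative WT cells. It was low throughout, with its higher values in proliferative Gne KO and differentiated WT cells, and an interaction of -5.48 ± 0.59 (SE, adjusted p = 5.58e-06). Irf7, a transcription factor of the interferon response, had a response of -0.70 ± 0.19 in Gne KO cells and 1.69 ± 0.25 in WT cells, and counted as lost after the GC correction. Mfap5, of the elastic microfibrils, had 93.03, 70.3 and 101 in differentiated and 214, 282 and 249 in proliferative Gne KO cells, against 616, 584 and 456 in differentiated and 169, 232 and 248 in proliferative WT cells, and an interaction of -2.86 ± 0.26 (SE, adjusted p = 1.66e-06). Timp2, an inhibitor of matrix proteases, was abundant, with 24424, 22499 and 24550.3 in differentiated and 49743, 63332 and 62680.0 in proliferative Gne KO cells, against 29392, 29858 and 29329.6 in differentiated and 24881, 23232 and 23009.8 in proliferative WT cells. Proliferative Gne KO libraries stood far above the rest for Timp2 and the WT libraries were separate by state over a small range, with an interaction of -1.61 ± 0.12 (SE, adjusted p = 4.46e-07).

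Genes that fell in WT cells and rose in Gne KO cells included a pair of matrix proteins known from calcified tissue. Spp1, which encodes osteopontin, had 29968, 33499 and 31657 in differentiated and 19317, 16133 and 17481 in proliferative Gne KO cells, against 10069, 9682 and 9577 in differentiated and 28554, 34549 and 34722 in proliferative WT cells. Both genotypes were separate by state, in opposite directions, and differentiated Gne KO cells stood within the range of proliferative WT cells. The response was 0.85 ± 0.09 in Gne KO cells and -1.73 ± 0.09 in WT cells, and the interaction was 2.58 ± 0.13 (SE, adjusted p = 2.23e-08), or 2.07 corrected. Mgp, the matrix Gla protein that inhibits calcification, had 908, 764 and 907 in differentiated and 370.4, 712 and 446 in proliferative Gne KO cells, against 834, 795 and 596 in differentiated and 3951, 3129 and 3221 in proliferative WT cells. Proliferative WT cells stood far above the rest, and the interaction was 3.04 ± 0.26 (SE, adjusted p = 8.53e-07). Slc7a11, the cystine transporter, had 601, 582 and 583 in differentiated and 145, 109 and 101 in proliferative Gne KO cells, against 1207, 1254 and 1306 in differentiated and 1428, 1824 and 2145 in proliferative WT cells, with an interaction of 2.81 ± 0.22 (SE, adjusted p = 5.46e-07). Rasa1, a GTPase-activating protein for Ras, had 3091, 3215 and 3212 in differentiated and 1120.2, 621 and 649.96 in proliferative Gne KO cells, against 3235, 3027 and 3535 in differentiated and 5285, 5234 and 4963 in proliferative WT cells, with an interaction of 2.70 ± 0.21 (SE, adjusted p = 4.46e-07). Zfp948 had an interaction of 2.43 ± 0.22 (SE, adjusted p = 1.20e-06). Of the 167 genes of this kind 36 were still called after the GC correction, the 5 named here among them, and of the 125 of the opposite kind 78 were. The corrected interactions were 3.17 for Mgp, 1.67 for Slc7a11, 1.94 for Rasa1 and 1.59 for Zfp948.

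Some responses ran the same way in both genotypes but differed in size. C3, the central complement component, had 1484, 1192 and 1491 in differentiated and 532, 1128 and 625 in proliferative Gne KO cells, against 882, 922 and 859 in differentiated and 27.7, 104 and 108 in proliferative WT cells. It rose in both genotypes, by less in Gne KO cells, where the proliferative level was already high, and the interaction was -2.83 ± 0.47 (SE, adjusted p = 0.000218). The interaction was -2.33 ± 0.27 (SE, adjusted p = 9.92e-06) for C1s2, a complement protease, and -2.42 ± 0.23 (SE, adjusted p = 1.68e-06) for Scube3, a secreted EGF-domain protein. Aspn, the proteoglycan asporin, fell in both, with an interaction of 3.34 ± 0.71 (SE, adjusted p = 0.00144) that did not pass after the GC correction (1.68, at 34.3% GC). Ptx3, a soluble pattern recognition protein, fell much further in Gne KO cells, with 1.74, 4.32 and 3.71 in differentiated and 310.2, 273 and 325 in proliferative Gne KO cells, against 70.99, 85.9 and 73.2 in differentiated and 183, 253 and 277 in proliferative WT cells, and an interaction of -4.86 ± 0.49 (SE, adjusted p = 3.68e-06). Il33, a cytokine of the interleukin-1 family, rose further, with 10396, 10138 and 9804 in differentiated and 405, 577 and 479.9 in proliferative Gne KO cells, against 2932, 2977 and 3738 in differentiated and 667, 1100.2 and 1189 in proliferative WT cells. Its differentiated Gne KO libraries stood above all others, and the interaction was 2.64 ± 0.25 (SE, adjusted p = 1.68e-06). Igfbp4, an IGF-binding protein, rose further too, with an interaction of 3.72 ± 0.70 (SE, adjusted p = 0.000577), as did Pi15, a protease inhibitor, with a response of 5.69 ± 0.47 in Gne KO cells and 2.06 ± 0.27 in WT cells. The interaction of Pi15 was 3.63, or 1.89 after the GC correction, and that of Igfbp4 was 4.16 corrected. Ctgf, a CCN protein and YAP target, had a response of -6.23 ± 0.59 in Gne KO cells and -2.71 ± 0.20 in WT cells. The interaction of Fmod, the collagen-binding fibromodulin, was -3.74 ± 1.21 (SE, adjusted p = 0.0206) and missed the threshold without differentiated Gne KO replicate 2 or 3 or proliferative Gne KO replicate 3, at an adjusted p of 0.0534 to 0.0744.

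Gene lists of known pathways were set beside all genes tested, whose median interaction was -0.02 and of which 5.54% were called higher and 3.00% lower. The lists are described by counts and medians, since they were written with earlier results known. Interferon response and antigen presentation had a median interaction of -0.94 over 49 genes, with none called higher and 12 lower, 7 of them lost rises. The median response was -0.04 in Gne KO cells and 0.91 in WT cells. Summed, the list came to 62845 to 64924 normalized counts in differentiated and 56291 to 74913 in proliferative Gne KO cells, against 55532 to 57698 in differentiated and 33343 to 37763 in proliferative WT cells, so that proliferative WT cells were low. After the GC correction 11 were called, with a median of -0.69. Of the named members that were not called, H2-K1, a class I antigen-presenting chain, had an interaction of -0.70 and B2m, its light chain, of -0.44, which became -1.31 and was called after the correction. Of 44 chemokines, cytokines and complement genes, 2 were called higher and 10 lower, with a median of -0.66.

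Of 66 genes of mitosis, 27 were called lower and 4 higher, and 19 of these fell in both genotypes but further in Gne KO cells. The median interaction was -0.89, and -1.02 after the GC correction, when 30 were called lower and 0 higher. The 4 called higher were Smc2 (1.60) and Smc4 (1.14), of the condensin complex, and the kinesins Kif18a (1.37) and Kif20b (1.47), named here after their values were seen. The median response was -1.49 in Gne KO cells and -0.53 in WT cells. Ccnb2, a B-type cyclin that drives entry into mitosis, had 585, 617 and 618 in differentiated and 2578, 3135 and 2915 in proliferative Gne KO cells, against 1271, 1379.9 and 1359 in differentiated and 1364, 1236 and 1163 in proliferative WT cells. Proliferative Gne KO cells stood above and differentiated Gne KO cells below every WT library, and the interaction was -2.33 ± 0.13 (SE, adjusted p = 3.26e-08). Cdca3, which promotes mitotic entry, had 551, 563 and 570.2 in differentiated and 2094, 2762 and 2414 in proliferative Gne KO cells, against 1002, 943 and 1056 in differentiated and 1283, 1075 and 979 in proliferative WT cells, and an interaction of -1.95 ± 0.16 (SE, adjusted p = 7.87e-07). Plk1, the polo-like kinase, had 799, 853 and 843 in differentiated and 3493, 4657 and 4965 in proliferative Gne KO cells, against 1231, 1269 and 1272 in differentiated and 2030.5, 1817 and 1645 in proliferative WT cells, with an interaction of -1.84 ± 0.17 (SE, adjusted p = 1.38e-06). Kif20a, a kinesin of cytokinesis, had an interaction of -1.85 ± 0.12 (SE, adjusted p = 1.34e-07), Pimreg, a regulator of the metaphase to anaphase step, of -1.91 ± 0.16 (SE, adjusted p = 7.53e-07), and Spc24, a kinetochore subunit, of -1.83 ± 0.18 (SE, adjusted p = 2.80e-06). Mki67 and Top2a, the most abundant members not called, had interactions of 0.07 and -0.11, and the Gne KO response was -0.43 ± 0.10 and -0.83 ± 0.11. Of 61 genes of DNA replication, 2 were called higher and 7 lower, with a median of -0.58. Without proliferative Gne KO replicate 2, 4 were called lower, and with library sizes alone 1. Rrm2, a subunit of ribonucleotide reductase, had an interaction of -1.20 ± 0.14 (SE, adjusted p = 1.54e-05).

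Promoters of mitotic genes are known for repeated CCAAT boxes, which the factor NF-Y binds, and are shown for Ccnb2, Cdca3 and Plk1 from RefSeq upstream sequence (GRCm38.p6). Each line gives the 120 bases before the RefSeq start site, 5′ to 3′ on the gene's strand. CCAAT, or ATTGG where it lies on the other strand, is in capitals. The stretch of Cdca3 lies within the gene as counted, which starts at chr6:124829547. Ccnb2 is at chr9:70421555-70421674 on the minus strand, Cdca3 at chr6:124830056-124830175 on the plus strand and Plk1 at chr7:122159315-122159434 on the plus strand.
Ccnb2: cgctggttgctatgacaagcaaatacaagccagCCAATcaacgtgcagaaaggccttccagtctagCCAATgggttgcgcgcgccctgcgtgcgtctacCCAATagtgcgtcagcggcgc
Cdca3: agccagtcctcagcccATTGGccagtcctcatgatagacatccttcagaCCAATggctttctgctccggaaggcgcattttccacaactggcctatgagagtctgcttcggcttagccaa
Plk1: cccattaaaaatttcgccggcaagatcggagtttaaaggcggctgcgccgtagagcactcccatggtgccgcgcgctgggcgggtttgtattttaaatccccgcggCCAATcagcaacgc
The stretch of Ccnb2 held 3 such boxes, that of Cdca3 held 2 and that of Plk1 held 1. Within 250 bases upstream, searched on both strands, at least 2 boxes stood in 8 of the 16 matched promoters of mitosis genes called lower (50.0%), in 22 of the 51 of the whole mitosis list (43.1%) and in 1515 of all 11159 matched (13.6%). CAGCTG, an E-box letter string that reads the same on both strands, stood in 12 of 49 matched promoters of lost rises (24.5%), against 12.3% of all. It also stood in 16 of 90 of genes reversed down in Gne KO cells (17.8%). TTTGAA, another string counted, stood in 9 of the 49 (18.4%), against 10.7% of all. CAGCTG was absent within 250 bases in Mef2c and Sfrp2, also lost rises. It lay in the promoter of Myh4 (chr11:67237692-67237811, plus strand), whose 120 bases before the start site are shown with the E-box in capitals.
Myh4: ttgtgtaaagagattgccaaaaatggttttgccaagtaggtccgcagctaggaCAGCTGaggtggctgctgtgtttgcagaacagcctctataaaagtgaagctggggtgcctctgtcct
A match describes the letters in this window and is not a site of binding.

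Of 64 cytoskeleton genes, 1 was called higher and 18 lower, with a median of -0.55, or -0.32 with 1 and 13 after the GC correction. Besides Tuba1a and Tubb3, other tubulins were among the 18. Tubb5, a beta-tubulin, had 17606, 18151 and 17976 in differentiated and 66649.9, 86889 and 97596 in proliferative Gne KO cells, against 22819.6, 22792 and 22690.1 in differentiated and 37407, 34782 and 31809 in proliferative WT cells, and an interaction of -1.60 ± 0.15 (SE, adjusted p = 2.15e-06). Tubb6 followed with an interaction of -1.82 ± 0.20 (SE, adjusted p = 7.28e-06), and that of Tubb4b was -1.66 ± 0.14 (SE, adjusted p = 1.06e-06). The exception was Pfn2, a profilin, which rose further in Gne KO cells, with 3047, 3087 and 2994 in differentiated and 255, 279.9 and 212 in proliferative Gne KO cells, against 2839.6, 2777 and 2785 in differentiated and 913, 999 and 1136 in proliferative WT cells, and an interaction of 2.15 ± 0.14 (SE, adjusted p = 1.34e-07). Actb, the main cytoplasmic actin, was not called, at -0.48.

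Genes of the sarcomere stood low in Gne KO cells in both states, and the number called for the interaction varied with the libraries and the fit. Of 56, 1 was called higher and 9 lower, 7 of them lost rises, with a median interaction of -0.94, or -0.71 after the GC correction, when 1 and 5 were called. The median response was 0.40 in Gne KO cells and 1.41 in WT cells. Of the 56 genes, 17 in differentiated and 19 in proliferative Gne KO cells averaged under 10 normalized counts. In differentiated and proliferative WT cells 4 and 7 did. None of the 12 myotube markers was called or had an adjusted p under 0.05 (limma voom, limma-trend likewise), and 0 had an unadjusted p under 0.05. Proliferative WT replicate 1 held 83935 counts of these markers, the highest of its group, whose lowest held 29038. Without it 28 sarcomere genes were called lower at a median of -1.33, and 7 myotube markers were called lower. The sarcomere genes called lower came to 4, at a median of -0.62, without proliferative Gne KO replicate 2, to 5 without differentiated Gne KO replicate 2 or with weights per group, to 6 without differentiated Gne KO replicate 1 or proliferative WT replicate 2, and to 17 with limma-trend on all libraries. Ttn, titin, had 1227, 689 and 1066 in differentiated and 173, 343 and 95.8 in proliferative Gne KO cells, against 57029, 54724 and 53535 in differentiated and 25587, 11050.3 and 10616 in proliferative WT cells. Its level was far lower in Gne KO cells, yet the response of 2.46 ± 0.44 there was near the 1.93 ± 0.28 of WT cells, with a 95% interval of the interaction of -0.57 to 1.63. The interaction of Acta1, skeletal actin, was -0.40 with an interval of -1.76 to 0.96, and it was called, at -1.31 and an adjusted p of 0.00365, in 1 of the alternatives run, without replicate 1 of both proliferative groups, which was chosen after seeing the data. Klhl40, which stabilizes thin filaments, was the 1 called higher, with 467, 455 and 429.96 in differentiated and 16.8, 33.5 and 59.2 in proliferative Gne KO cells, against 855, 978 and 824 in differentiated and 432, 203 and 229 in proliferative WT cells, and an interaction of 2.14 ± 0.45 (SE, adjusted p = 0.00127). Of 32 genes of excitation, calcium handling and the synapse, 3 were called higher and 5 lower, the 5 all lost rises and Casq1 and Colq among them, with a median of -0.60, or -0.34 with 1 and 2 after the GC correction. Without proliferative WT replicate 1, 9 were called lower, and 2 without differentiated Gne KO replicate 2 or 3 or proliferative Gne KO replicate 2 or 3. Chrnd, a subunit of the acetylcholine receptor, had 1144, 1207 and 1006 in differentiated and 94.8, 159.6 and 155 in proliferative Gne KO cells, against 1493, 1599 and 1155 in differentiated and 1172, 839 and 928 in proliferative WT cells, and an interaction of 2.55 ± 0.26 (SE, adjusted p = 3.49e-06). Trdn, triadin, had 2.92 ± 0.57 (SE, adjusted p = 0.000821), which did not pass after the GC correction (1.49, at 36.8% GC). Myod1, the myogenic regulator, fell further in Gne KO cells, with 246, 189 and 215 in differentiated and 1695, 2372 and 2321 in proliferative Gne KO cells, against 1375, 1398 and 1257 in differentiated and 3639.8, 1571 and 1603 in proliferative WT cells, and an interaction of -2.62 ± 0.38 (SE, adjusted p = 7.29e-05).

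Matrix genes were called in both directions. Of 39 matrix glycoproteins and proteoglycans, 7 were called higher and 8 lower, and 3 and 6 after the GC correction. Of 37 fibrillar and associated collagens, 5 were called higher and 7 lower, and 6 and 4 after the correction. Col6a5, a chain of type VI collagen, had 109, 71.3 and 96.6 in differentiated and 8.89, 15.03 and 11.8 in proliferative Gne KO cells, against 248, 224 and 227 in differentiated and 0.867, 2.22 and 3.42 in proliferative WT cells. It rose in both genotypes, and the interaction was -3.69 ± 0.56 (SE, adjusted p = 0.000103). Pcolce2, which enhances the processing of procollagen, had 49.6, 47.6 and 65.9 in differentiated and 1251, 1141 and 1317 in proliferative Gne KO cells, against 124, 148 and 127 in differentiated and 297, 313 and 318 in proliferative WT cells, with an interaction of -3.29 ± 0.20 (SE, adjusted p = 8.25e-08). Col11a2, of type XI collagen, rose only in Gne KO cells, with an interaction of 2.45 ± 0.24 (SE, adjusted p = 2.70e-06), and Col7a1, of anchoring fibrils, was reversed upward, at 2.08 ± 0.20 (SE, adjusted p = 2.12e-06). Dcn, decorin, rose in both genotypes, with 12156, 11328 and 12645 in differentiated and 230.2, 363 and 279.8 in proliferative Gne KO cells, against 3218, 3007 and 2640.2 in differentiated and 265, 322 and 347 in proliferative WT cells, and its interaction of 2.14 was 0.77 and no longer called after the GC correction, at 37.4% GC. Fn1, fibronectin, and Col1a2 were not called, at 0.25 and -0.23.

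Signalling lists were short, and of all genes tested 5.54% were called higher and 3.00% lower. Of 26 genes of Id proteins and BMP signalling, 2 were called higher and 7 lower, and after the GC correction 0 and 9, with medians of -0.56 and -0.55. Both called higher were receptors, Bmpr1a at 1.14 and Bmpr2 at 1.31. Smad9, a signal transducer of BMPs, had 6.09, 15.1 and 9.29 in differentiated and 144, 121 and 129 in proliferative Gne KO cells, against 14.4, 9.34 and 10.03 in differentiated and 31.2, 27.8 and 26.2 in proliferative WT cells, and an interaction of -2.43 ± 0.42 (SE, adjusted p = 0.000319). Of 38 immediate early and serum response genes, 1 was called higher and 8 lower, with a median of -0.54. Klf2, a Krüppel-like factor, had 52.2, 30.3 and 33.4 in differentiated and 95.8, 87.9 and 151 in proliferative Gne KO cells, against 241, 224 and 151 in differentiated and 97.1, 74.4 and 78.7 in proliferative WT cells, rising in WT cells and falling in Gne KO cells, and an interaction of -2.77 ± 0.38 (SE, adjusted p = 4.30e-05). Junb, an AP-1 subunit, rose only in WT cells, and its interaction of -1.45 ± 0.26 (SE, adjusted p = 0.000461) was -0.99 and not called after the correction. Of 36 Wnt genes, 1 was called higher and 5 lower. The 1 was Wnt7b, a Wnt ligand, with 76.5, 71.3 and 60.4 in differentiated and 0, 1.16 and 0 in proliferative Gne KO cells, against 54.7, 68.2 and 40.1 in differentiated and 13.9, 15.5 and 20.5 in proliferative WT cells, and an interaction of 4.81 ± 0.69 (SE, adjusted p = 6.88e-05). Of 23 genes of FGF signalling, 4 were called higher and 3 lower. Fgf1 had 20.9, 22.7 and 19.5 in differentiated and 103, 113 and 90.4 in proliferative Gne KO cells, against 153, 129.8 and 126 in differentiated and 154, 96.6 and 107 in proliferative WT cells, an opposite change to that of Fgf2, and an interaction of -2.44 ± 0.31 (SE, adjusted p = 2.28e-05).

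Of 31 p53 targets, 7 were called higher and 2 lower, and 3 and 0 after the GC correction. The median was -0.02 and moved between -0.06 and 0.20 over the alternatives. Besides Pmaip1, Gadd45a, a stress sensor, rose further in Gne KO cells, with 4709, 4154 and 4478 in differentiated and 667, 926 and 594 in proliferative Gne KO cells, against 3097, 3259 and 3027 in differentiated and 1179, 1287 and 1524 in proliferative WT cells, and an interaction of 1.39 ± 0.18 (SE, adjusted p = 2.67e-05), while its relatives Gadd45b and Gadd45g fell in Gne KO cells only, at -1.54 and -1.36. Of 24 imprinted genes, 6 were called higher and 2 lower, and 4 and 3 after the correction. Cdkn1c, an imprinted inhibitor of cyclin-dependent kinases that marks cells leaving the cycle, had 8.69, 7.57 and 3.71 in differentiated and 34.6, 87.9 and 44.1 in proliferative Gne KO cells, against 301, 375 and 304 in differentiated and 526, 199.8 and 201 in proliferative WT cells, with an interaction of -3.10 ± 0.87 (SE, adjusted p = 0.01). Mest, another imprinted gene, had an interaction of 1.71 ± 0.37 (SE, adjusted p = 0.00167). None of the 31 sialic acid genes and sialyltransferases was called (limma voom), against 1 with limma-trend. An adjusted p under 0.05 was reached by 4 with a positive and 10 with a negative interaction, and an unadjusted one by 6 and 11, at a median of -0.21. Of all genes tested, 19.7% reached the adjusted one with a positive and 22.2% with a negative interaction. St3gal1, a sialyltransferase, had an interaction of 0.14, with an interval of -0.14 to 0.43.

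In the respiratory chain and ribosomal lists many interactions were negative but under the limit of size. Of all genes tested, 22.2% had an adjusted p under 0.05 with a negative and 19.7% with a positive interaction. Of 78 nuclear genes of the respiratory chain and ATP synthase, 58 passed with a negative and 0 with a positive one. Only 4 of these genes passed the limit of size. The median was -0.68, and -0.52 after the GC correction, when 8 were called. Without proliferative Gne KO replicate 1, 17 were called, without proliferative Gne KO replicate 2 none (limma voom), and without proliferative WT replicate 1, 8. Atp5b, a catalytic subunit of ATP synthase, had 15349, 15497 and 15021 in differentiated and 28953, 30203 and 39605 in proliferative Gne KO cells, against 19996, 20495 and 19778 in differentiated and 26714, 24279 and 23467 in proliferative WT cells. Its highest values were those of proliferative Gne KO cells, and the interaction was -0.79 ± 0.14 (SE, adjusted p = 0.000341). Of 77 cytosolic ribosomal proteins, 45 passed with a negative and 0 with a positive interaction, and 4 were called, at a median of -0.45, against 8 and 0 without proliferative Gne KO replicates 1 and 2 in turn. With library sizes alone the medians of these 2 lists were -0.46 and -0.24 and none of their genes was called. Of 34 genes of cholesterol synthesis, 0 were called higher and 8 lower, and 3 after the GC correction or with library sizes alone. Mvd, a mevalonate pathway enzyme, was reversed, with 756, 783 and 731 in differentiated and 1178, 1456 and 1754 in proliferative Gne KO cells, against 1596, 1572 and 1492 in differentiated and 688, 938 and 1067 in proliferative WT cells, and an interaction of -1.75 ± 0.21 (SE, adjusted p = 1.32e-05). Of 32 NRF2 targets, 1 was called higher (Slc7a11) and 4 lower. Gstm1, a glutathione transferase, had 2166, 2132 and 2109 in differentiated and 5013, 8232 and 7189 in proliferative Gne KO cells, against 2106, 2103 and 2389 in differentiated and 2389, 2298 and 2299 in proliferative WT cells, with an interaction of -1.56 ± 0.19 (SE, adjusted p = 1.63e-05).

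**Figure D5:**
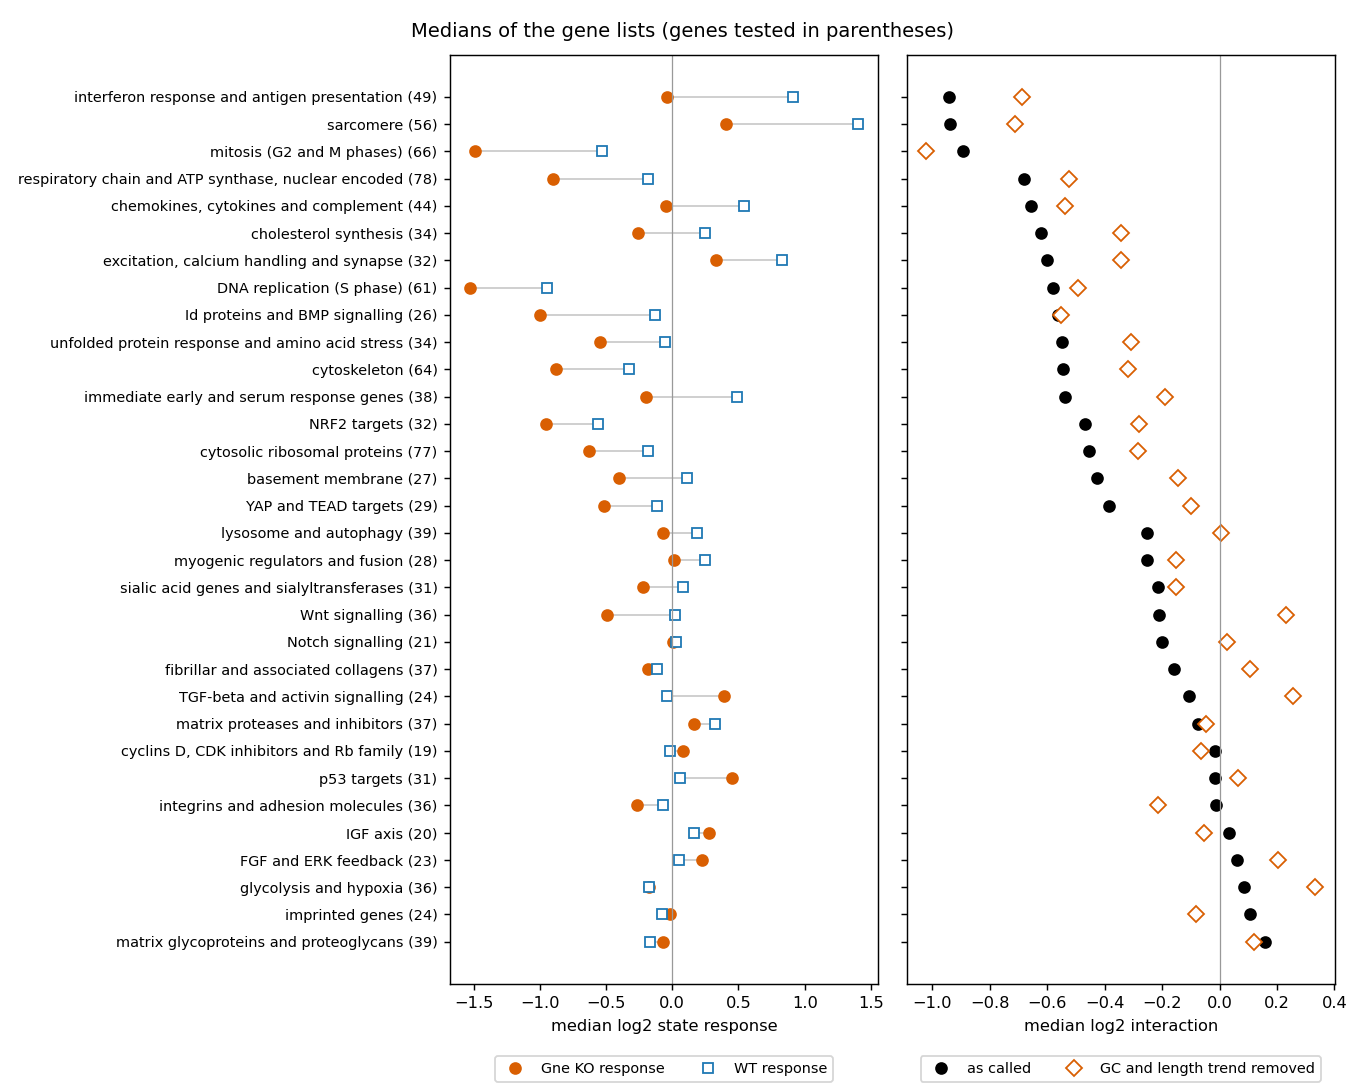
Medians of the 32 gene lists. The left panel gives the median response of each list in Gne KO and WT cells, and the right panel the median interaction as called and with the trend in GC content and length removed. The interferon list has -0.04 in Gne KO and 0.91 in WT cells, and the mitosis list -1.49 and -0.53.

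Markers of other cell types moved with the state in part. Of all genes tested, 5.54% were called higher and 3.00% lower, and these marker lists are short. Of 9 smooth muscle markers, 0 were called higher and 3 lower. They summed to 30747 to 33303 normalized counts in differentiated and 84054 to 129430 in proliferative Gne KO cells, against 57467 to 66983 in differentiated and 90531 to 105621 in proliferative WT cells, and Acta2, smooth muscle actin, had an interaction of -1.23 ± 0.19 (SE, adjusted p = 0.000114). Of 9 fibroblast markers, 4 were called higher and 2 lower, and their sums were 264038 to 274631 in differentiated and 142250 to 168313 in proliferative Gne KO cells, against 181939 to 201284 in differentiated and 203827 to 247900 in proliferative WT cells. Endothelial, immune, and neuron and glia markers summed to at most 579 in any library. Of 6 neuron and glia markers 3 were called lower and 0 higher, at a median of -1.24, of 5 endothelial markers 2 and 0, at -1.77, and of 6 immune markers 0 and 0 by limma voom and by limma-trend, with 1 at an unadjusted p under 0.05. Of 7 proliferating myoblast markers 1 was called lower and 0 higher, at a median of -0.67, and their sums ran over 21924 to 22459 in differentiated and 32239 to 37097 in proliferative Gne KO libraries, against 45042 to 45627 in differentiated and 48176 to 65249 in proliferative WT libraries. Of 10 bone, cartilage and tendon markers 1 was called lower and 0 higher, at a median of 0.49, with sums of 4707 to 6411 in Gne KO and 3934 to 4368 in WT libraries. Of 7 adipocyte markers 2 were called lower, Plin4, of the lipid droplet, at -3.92 ± 0.56 (SE, adjusted p = 6.35e-05) and Pparg, the regulator of fat cell formation, at -2.99 ± 0.57 (SE, adjusted p = 0.000688), both under 50 in every library. The call of Pparg ended without differentiated Gne KO replicate 1 and after the GC correction. After that correction 3 fibroblast markers were called higher and 1 lower. Called lower were then 2 smooth muscle, 1 endothelial, 2 neuron and glia, 2 proliferating myoblast and 1 adipocyte markers, and 0 of bone, cartilage and tendon. The part of other cell types in these responses was not tested. By chromosome, the share of genes called ran between 6.90% on chromosome 8 and 11.7% on the X chromosome.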

How the data were processed

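RNA of Sol8 cells was sequenced as stranded mRNA libraries, with 3 libraries in each of 4 groups. Per the submitters' processing notes the authors used mouse build GRCm38, and the tools named there are DESeq2 1.22.1, HTSeq 0.6.1, TopHat2 2.1.1 and cutadapt 1.18. The deposited table gives raw read counts per gene and, beside them, the authors' normalized counts, fold changes and p-values, which were not used. It lists 54838 genes, and 6252 of them carry a question mark in place of every raw count and were left out. No source used here states the strand setting of the counting.

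Counts of the 20415 genes with at least 10 counts over the 12 libraries were scaled by TMM (trims of 30% and 5%) and fitted with limma voom (limma 3.58.1, R 4.3.3) in 1 fit over the 4 groups, with Benjamini-Hochberg adjustment over all genes tested. A count test was not run. That choice was made because the deposited columns held question marks, though the values of the genes kept were whole counts. Depth was 22612038 to 29389759 counts. The median standard error of the interaction was 0.152 over the 10676 genes that averaged 100 normalized counts or more. The size limit of the call follows the effect filter of the study's methods. GC content and length came from GENCODE M21 for 20401 genes. The steps were tested on simulated data.

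The question, the gene lists and the genes named were chosen with earlier results of these data known. Named were, at a mean of at least 100 normalized counts, the 6 largest interactions in each direction of the lost, gained and reversed classes, the 4 largest weakened and strengthened, and from each list up to 6 called members and the 2 most abundant ones not called, some of which are not reported here. Alternatives were other scaling, filters, weights, limma-trend, a replicate block, a correction for GC content and length, and leaving out each library in turn.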

Additional observations from a re-analysis of the deposited data

Results flagged for a closer look

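The interaction tests whether the effect of culture state differed between Gne KO and WT cells, and the genes below were called for it (limma voom). In all, 1742 genes were called, of which 106 were classed as lost in Gne KO cells, 1028 as gained and 292 as reversed. The classes come from thresholds on each response with no further test, and a response that misses its threshold is not shown to be 0. They came to 78, 512 and 184 after the GC correction, and to 101, 1112 and 632 without proliferative Gne KO replicate 1. Among the genes that rose in Gne KO and fell in WT cells, the interactions were 3.04 for Mgp, 2.81 for Slc7a11, 2.70 for Rasa1, 2.58 for Spp1 and 2.43 for Zfp948 on the log2 scale. Among those that fell in Gne KO and rose in WT cells they were -5.53 for Fbln7, -3.80 for Npnt, -3.48 for Tead4, -3.14 for Rassf2, -3.03 for Tubb3 and -2.87 for Nov. In the same order, the values after the GC correction were 3.17, 1.67, 1.94, 2.07 and 1.59, then -5.22, -3.58, -2.99, -3.29, -2.55 and -3.14. Groups of 3 libraries are too small for a test of single outlying libraries.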

How the results depend on the processing

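No named gene changed the sign of its interaction while called under any alternative run. With the trend in GC content and length removed, 1054 genes were called, 512 gained and 184 reversed, and with the replicate block added to that correction 1038, 505 and 184. By adjusted p alone 8545 genes passed for the interaction, 11511 for the response of Gne KO cells and 6499 for that of WT cells, with 1070 lost, 4821 gained and 740 reversed. The lost genes came to 58 when the Gne KO response had to lie within 1 of 0. Leaving out each library in turn gave 1478 to 2379 genes called for the interaction, 2070 to 2996 for the Gne KO response, 539 to 584 for the WT response, 89 to 130 lost, 816 to 1134 gained and 231 to 632 reversed, the last without proliferative Gne KO replicate 1. Without replicate 1 of both proliferative groups, chosen after seeing the data, 697 were reversed. The replicate numbers did not pair the libraries, whose deviations correlated between -0.37 and 0.11 within a number, with 0 of 12 libraries closest to their own number in every other group, and the replicate block gave 1719 calls. Of 184 named genes called, 62 lost the call after the GC correction and 31 with library sizes alone. Depth and the spread of the proliferative Gne KO libraries limit what was seen of genes under 10 normalized counts.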
